A study of Mus musculus with 36 samples.

Results

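Mouse lung pericyte-like cells kept in media only were compared at 24 h with cells kept in the same media for 6 h, by sequencing of their messenger RNA. The comparison took all libraries whose titles name media and 24 h and set them against all whose titles name media and 6 h. These are 12 of the 36 libraries of the series. Each time had 6 libraries, 3 from female and 3 from male cells. The other 24 libraries came from cells given bronchoalveolar lavage fluid (BALF, the fluid washed out of the airspaces) of uninjured or injured lungs for 6 or 24 h. They are used below only to see whether a change in media differed from the change in BALF. Per the labels' protocols, cells from digested mouse lungs were grown on gelatin in medium with 10% fetal bovine serum. Cells carrying CD31, CD45 or CD326 (endothelial, blood and epithelial surface proteins) were removed, and cells carrying PDGFRβ were kept. The media at both times was DMEM/F12 with 2.5% fetal bovine serum, 1% insulin, transferrin and selenium and 1% antibiotics, mixed 1:1 with sterile phosphate-buffered saline. Cells at both times had thus been moved from the growth medium to a lower serum. Strain, age and genotype are not given in the labels, and no library from the start of the exposure was analysed here. Nothing in the labels tells whether replicates are different animals or different dishes. The p-values therefore measure the spread between these libraries, which may be technical.

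Pericytes wrap capillaries and share the platelet-derived growth factor receptor PDGFRβ with lung fibroblasts. Cultured mesenchymal cells respond to serum, to bone morphogenetic proteins (BMPs) and to cytokines of the interleukin 6 family within hours, and each of these pathways switches on its own inhibitors. BMP receptors act through SMAD transcription factors that induce the Id genes and the inhibitory SMADs. The shared receptor chain gp130 (gene Il6st) acts through STAT3, which induces the inhibitor Socs3. The aryl hydrocarbon receptor, a sensor of small aromatic molecules, likewise induces both the enzyme Cyp1a1 and its own repressor Ahrr. Sterol and fatty acid synthesis genes respond to the lipid supply of the medium.

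The 6 libraries at 24 h held 19709427 to 27912506 counts and the 6 at 6 h 21284597 to 29797963. Levels are given as CPM, read counts normalised to a common library size with edgeR's TMM factors. In the text, 3 CPM values in a row are the lowest, the median and the highest of 6 libraries. The selection marker Pdgfrb lay at 669, 743 and 863 CPM at 24 h, against 556, 753 and 819.7 CPM at 6 h. The epithelial gene Epcam was at 0 in 10 of the 12 libraries and the T cell gene Cd3e in 12. Mesothelial markers were present, with a sum of 18.85 to 102.3 CPM at 24 h and 18.31 to 91.08 CPM at 6 h. Summed pericyte markers lay at 1346 to 2549 CPM at 24 h and 1064 to 1847 CPM at 6 h, but the pericyte marker Higd1b was at 0 in 12 of 12 libraries. The largest members of that sum were Pdgfrb, which fibroblasts share, and Cd248 (392 to 1283 CPM at 24 h, 310 to 556 CPM at 6 h). Kcnj8 and Abcc9 reached at most 0.47 and 0.64 CPM. Summed lung fibroblast markers lay at 346 to 590 CPM at 24 h and 319 to 581 CPM at 6 h. The largest members of that sum were present in all 12 libraries. They were Npnt (70.5 to 285 CPM at 24 h, 106 to 382 CPM at 6 h), Col14a1 (75.5 to 210.5 and 54.2 to 232 CPM) and Pdgfra (52.7 to 166 and 36.6 to 107.5 CPM). Col13a1 and Ces1d were each at 0 in 8 of the 12 libraries. Female 24 h replicate 1 stood apart, with 3.87% of its counts on mitochondrial genes against 1.35 to 2.05% in the other 11 libraries. It had 18815 detected genes against 20218 to 20533 in the other 24 h libraries. Female 24 h replicate 2 carried Xist at 421 CPM and no Ddx3y count, as a female library would. Of 54 autosomal genes at least 2-fold apart between the other female and male libraries its level was nearer to the male mean in 51. Its nearest library was male 24 h replicate 3. For example Dio2, a thyroid hormone activating enzyme, lay at 74.5 CPM in it, at 3.16 to 8.14 CPM in the other 5 female libraries and at 46.4 to 88.9 CPM in the 6 male ones. It is also 1 of 3 media libraries whose label description carries another number than the other libraries of its group, with male 24 h replicate 3 and male 6 h replicate 3.

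**Figure D1:**
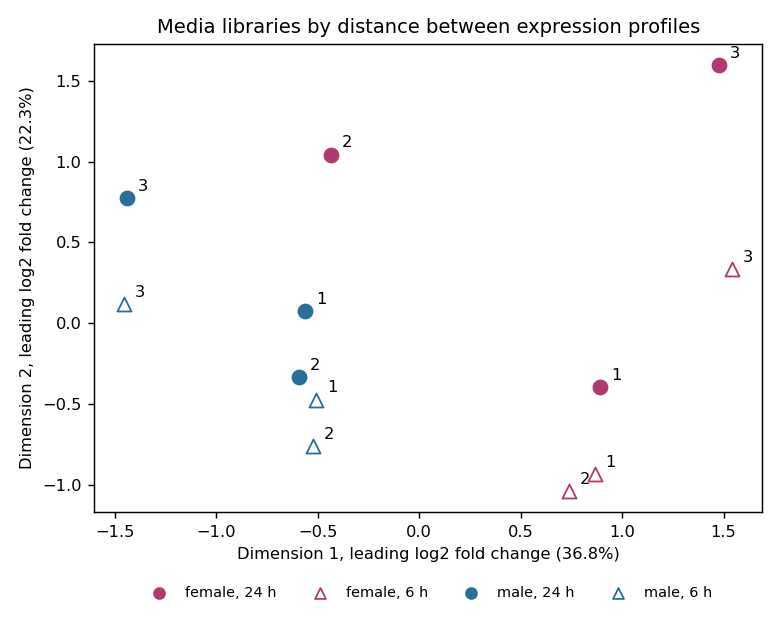
Multidimensional scaling of the 12 media libraries: each point is a library, filled circles are 24 h and open triangles 6 h, numbers are replicate labels, and distances are leading log2 fold changes. Dimension 1 (36.8%) separates most female from male libraries, with female 24 h replicate 2 at -0.43, next to the male ones (-1.45 to -0.51) and apart from the other female ones (0.74 to 1.54). The 24 h libraries sit at -0.40 to 1.60 on dimension 2 (22.3%), against -1.04 to 0.33 for the 6 h libraries.

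In all, 259 of 14733 tested genes (1.76%) differed between 24 and 6 h in media at a Benjamini-Hochberg adjusted p under 0.05 by edgeR's quasi-likelihood test with sex as a term, which is what "called" means below. Of these, 150 were higher at 24 h (1.02%) and 109 lower (0.74%), and 79 had moved at least 2-fold, 45 higher and 34 lower. The 6 libraries of one time lay wholly above those of the other for 172 of the 259. Over all tested genes the 24 h libraries lay wholly above for 197 (1.34%) and wholly below for 232 (1.57%). All log2 fold changes are 24 h over 6 h, with approximate standard errors, and their median over all tested genes was 0.02. In all 3105 genes, the called ones included, had an unadjusted p under 0.05.

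Many calls changed when a single library was left out. Without 1 library of 24 h, the count of 259 became 1205 (female replicate 1), 70 (female 2), 102 (female 3), 106 (male 1), 550 (male 2) and 52 (male 3). Without 1 library of 6 h it became 17 (female replicate 1), 30 (female 2), 137 (female 3), 84 (male 1), 35 (male 2) and 459 (male 3). The calls of 17 genes held in each of these 12 fits, among them those of Smad6, Smad9, Id1, Atoh8, Ahrr, Cyp1a1, Hmox1, Medag, Map2, Adcy8, Mrgprf, Eml1, Tmeff1, Abca7, Zcchc24 and Fabp7. Libraries 1 and 2 of the same sex lay closest to each other in male cells at both times and in female cells at 6 h. Female 24 h replicate 1 lay nearest to female 6 h replicate 1, and female 24 h replicate 2 to male 24 h replicate 3. The counts of libraries 1 and 2 were summed in every group, female 24 h included, and treated as 1 library. With these sums 8 of the 259 calls remained (among them Smad6, Smad9, Id1, Tmeff1, Atoh8, Cdo1 and Ifit3). Without the 3 libraries of differing description numbers 4 remained (Smad6, Unc5b, Grin3a and Bcl3).

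The gene with the smallest p was a feedback inhibitor of BMP signalling, and several BMP-related genes were called lower beside it. Smad6, the inhibitory SMAD of the BMP branch, lay at 18.9, 20.1 and 24.7 CPM at 24 h, against 34.7, 42.5 and 50.9 CPM at 6 h. Smad6 lies at chr9:63953076-64022059, minus strand of GRCm38, the build used throughout. Every 24 h library lay below every 6 h library, and the log2 fold change was -1.05 ± 0.10 (edgeR adjusted p = 0.00288). Id1, a BMP-induced blocker of basic helix-loop-helix factors, lay at 15.1, 23.8 and 33.3 CPM at 24 h, against 51.0, 56.8 and 68.2 CPM at 6 h. Id1 lies at chr2:152736251-152737410, plus strand. Its groups did not overlap either, at -1.25 ± 0.16 (edgeR adjusted p = 0.00542). Its relative Id2 lay at 19.8, 38.7 and 40.4 CPM at 24 h, against 54.5, 58.3 and 63.0 CPM at 6 h, again without overlap (-0.75 ± 0.15, edgeR adjusted p = 0.0307). Id2 lies at chr12:25093799-25097140, minus strand. Id3 lay at 69.3, 167 and 213 CPM at 24 h, against 256, 278 and 302 CPM at 6 h and missed the threshold although its groups did not overlap (-0.80 ± 0.20, edgeR adjusted p = 0.0567). Smad7, the inhibitory SMAD of both branches, had -0.98 ± 0.25 with overlap (edgeR adjusted p = 0.0603).

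Smad9, a receptor-activated SMAD of the BMP branch, lay at 7.37, 8.52 and 13.7 CPM at 24 h, against 17.2, 23.2 and 27.2 CPM at 6 h. Smad9 lies at chr3:54755582-54801257, plus strand. The groups were separate and the log2 fold change was -1.31 ± 0.16 (edgeR adjusted p = 0.00542). Atoh8, a basic helix-loop-helix factor known as a BMP target in endothelial cells, lay at 24.1, 32.2 and 55.8 CPM at 24 h, against 60.5, 71.8 and 84.9 CPM at 6 h and fell by 1.05 ± 0.15 on the log2 scale (edgeR adjusted p = 0.0122). Atoh8 lies at chr6:72206177-72235577, minus strand. The ligand Bmp4 went the other way, at 21.5, 28.7 and 39.7 CPM at 24 h, against 15.1, 17.1 and 30.4 CPM at 6 h (0.58 ± 0.13, edgeR adjusted p = 0.0499), with overlapping groups.

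Over the list of 26 TGF-β and BMP ligands, receptors and feedback genes, 4 were called lower (among them Smad6, Id1 and Id2) and 1 higher (Bmp4), against 0.74% of all tested genes called lower and 1.02% higher. Smad9 and Atoh8 are not in the list. In the list 17 had a negative and 9 a positive log2 fold change, and the list's median was -0.23 against 0.02 for all tested genes. The called members named above are known as BMP-related genes. The ligand Tgfb1 had -0.04 ± 0.34 (edgeR adjusted p = 0.96). Activity of the BMP and TGF-β branches was not tested. Leaving out 1 library at a time, Smad6, Smad9, Id1 and Atoh8 kept adjusted p-values of at most 0.0449. Id2 stayed called in 4 of 12 such fits (p up to 0.0911, without female 6 h replicate 2) and Bmp4 in 3 (p up to 0.131, without female 6 h replicate 2). Endothelial cells also carry several of these genes. Their summed markers lay at 40.2 to 272 CPM at 24 h and 49.02 to 231 CPM at 6 h. None of 9 tested markers was called (median log2 fold change -0.17), and Pecam1, which defines them, lay at 1.55, 5.58 and 25.8 CPM at 24 h, against 0.704, 10.3 and 31.6 CPM at 6 h. Their part in the BMP result was not tested. In bulk libraries fewer cells of a type and less RNA per cell cannot be told apart.

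The promoter of Smad9 is shown because this gene fell with the BMP targets and its window holds GGCGCC, a core motif of BMP-activated SMADs. Letters come from RefSeq on GRCm38.p6, the 250 bases before the start of the gene, 5′ to 3′ on the gene's strand, with motif matches on either strand in capitals (chr3:54755332-54755581, plus strand).
Smad9: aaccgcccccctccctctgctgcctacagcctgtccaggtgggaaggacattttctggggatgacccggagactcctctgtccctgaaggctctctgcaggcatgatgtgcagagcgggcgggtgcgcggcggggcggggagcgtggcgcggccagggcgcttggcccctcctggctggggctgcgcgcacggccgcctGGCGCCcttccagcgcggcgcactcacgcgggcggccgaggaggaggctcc
The match begins 51 bases before the start. Of 32851 such windows, with 1 chromosome left out, 9.59% hold GGCGCC on either strand. Among the called genes of the TGF-β and BMP list, 3 of 5 had a window and 1 of those (Id2) held it, against 4 of 13 matched genes of the list that were not called.

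**Figure D2:**
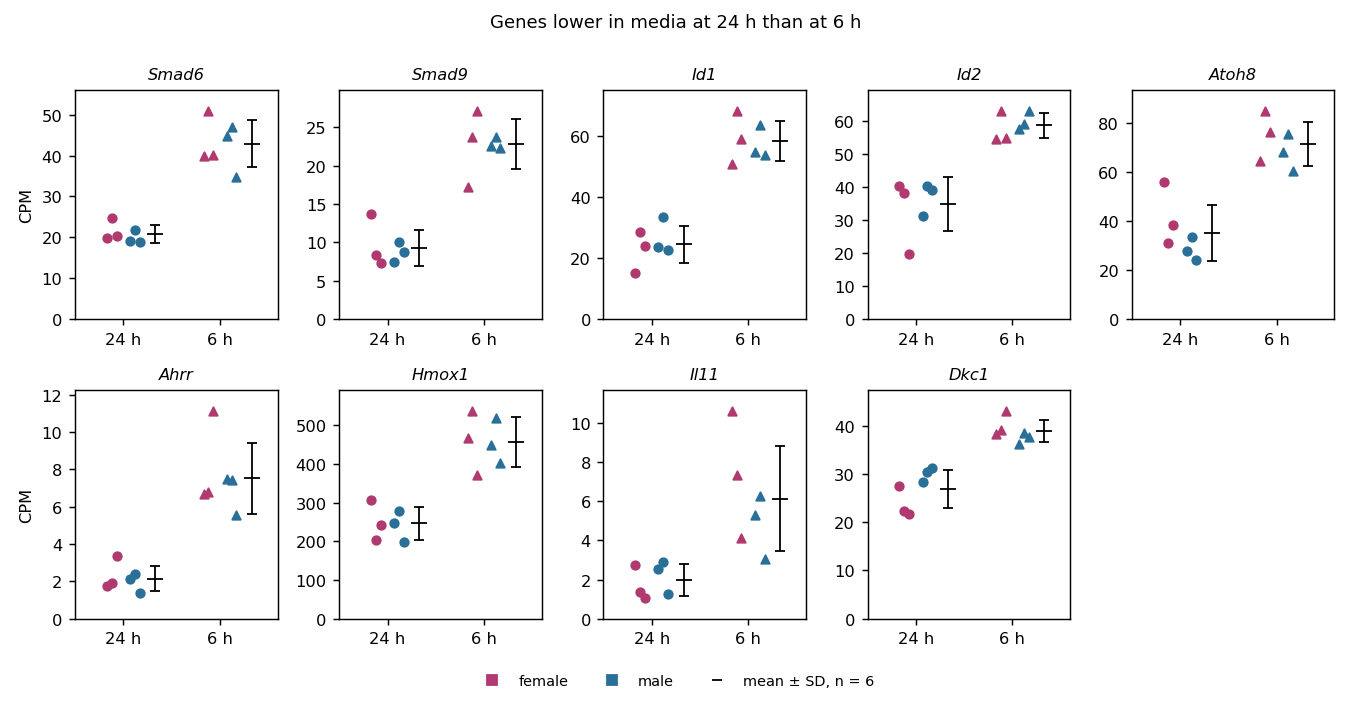
Levels in CPM of 9 genes lower at 24 h than at 6 h in media, 24 h on the left and 6 h on the right of each panel. Points are libraries (female and male in 2 colours), black bars are the mean and SD of 6, and axes start at 0; every gene shown has its 24 h libraries below its 6 h libraries.

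Ahrr, the repressor induced by the aryl hydrocarbon receptor, lay at 1.40, 2.04 and 3.34 CPM at 24 h, against 5.56, 7.12 and 11.1 CPM at 6 h. Ahrr lies at chr13:74211118-74292331, minus strand. The groups were separate, at -1.79 ± 0.22 on the log2 scale (edgeR adjusted p = 0.00542), and the call held without any 1 of the 12 libraries (p up to 0.0272). Cyp1a1, a drug and hydrocarbon oxidising enzyme and the receptor's best known target, was looked up after its values were seen. It had 3 counts in all at 24 h, found in 3 of the 6 libraries, against 126 counts at 6 h, with 8 to 51 in each library. The ratio of depth-adjusted totals was 0.0244 (95% exact interval 0.005 to 0.0729, counting error only; edgeR adjusted p = 0.00542). Other targets chosen in the same way did not pass the test. Cyp1b1 had -0.17 ± 0.21 (edgeR adjusted p = 0.692) and Tiparp -0.07 ± 0.15 (edgeR adjusted p 0.816). The receptor gene Ahr had 0.07 ± 0.25 (edgeR adjusted p 0.904).

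Both promoters are printed because Ahrr and Cyp1a1 fell together. The capitals mark GCGTG, the core of the receptor's DNA element, on either strand (RefSeq, GRCm38.p6, Ahrr chr13:74292332-74292581, minus strand, and Cyp1a1 chr9:57697363-57697612, plus strand).
Ahrr: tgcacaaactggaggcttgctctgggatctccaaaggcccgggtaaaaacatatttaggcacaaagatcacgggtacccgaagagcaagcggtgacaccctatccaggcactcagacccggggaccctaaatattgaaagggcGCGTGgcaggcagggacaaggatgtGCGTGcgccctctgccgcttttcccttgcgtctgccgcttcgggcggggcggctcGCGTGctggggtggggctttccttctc
Cyp1a1: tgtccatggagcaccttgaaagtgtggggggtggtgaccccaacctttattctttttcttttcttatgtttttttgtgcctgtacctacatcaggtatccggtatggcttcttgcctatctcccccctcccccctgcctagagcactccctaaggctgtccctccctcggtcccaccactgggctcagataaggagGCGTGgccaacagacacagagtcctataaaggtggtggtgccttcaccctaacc
The Ahrr window holds 3 matches, which begin 107, 82 and 27 bases before the start, and the Cyp1a1 window 1, at 54 bases. Among the same 32851 windows, 28.2% hold GCGTG.

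Of the 22 tested oxidative stress genes driven by NRF2, 2 were called lower (0.74% of all tested genes were) and none higher, with a list median of -0.24. Hmox1, heme oxygenase, lay at 199, 246 and 307 CPM at 24 h, against 371, 457 and 537 CPM at 6 h. Hmox1 lies at chr8:75093621-75100589, plus strand. There was no overlap, and it fell by 0.89 ± 0.13 on the log2 scale (edgeR adjusted p = 0.0127). Txnrd1, thioredoxin reductase, lay at 183, 235 and 363 CPM at 24 h, against 336, 462 and 529 CPM at 6 h, with overlap (-0.84 ± 0.15, edgeR adjusted p = 0.0223). Nqo1, a quinone reductase controlled by both NRF2 and the aryl hydrocarbon receptor, lay at 47.8, 67.9 and 83.0 CPM at 24 h, against 90.5, 96.8 and 303 CPM at 6 h. Its groups did not overlap but it missed the threshold (-0.91 ± 0.28, edgeR adjusted p = 0.0991). Hmox1 stayed called without any 1 library (p up to 0.0459) and Txnrd1 in 7 of 12 fits (p up to 0.071, without female 6 h replicate 2).

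Genes that build ribosomes had small negative fold changes in common. All 22 tested members of the list had a negative log2 fold change, with a median of -0.42. Among them 5 were called lower (0.74% of all tested genes), and 11 had every 24 h library below every 6 h library (1.57% of all). Gnl3 (nucleostemin) lay at 39.3, 58.1 and 69.1 CPM at 24 h, against 73.1, 84.7 and 93.9 CPM at 6 h (-0.59 ± 0.12, edgeR adjusted p = 0.0339). Dkc1, the pseudouridine synthase dyskerin, lay at 21.7, 27.9 and 31.2 CPM at 24 h, against 36.3, 38.4 and 43.1 CPM at 6 h (-0.54 ± 0.10, edgeR adjusted p = 0.0224). Groups were separate for both genes. Mybbp1a, a nucleolar protein, had -0.45 ± 0.09, Rrp12, a ribosome export factor, -0.59 ± 0.13, and Polr1b, a subunit of RNA polymerase I, -0.49 ± 0.11 (edgeR adjusted p of 0.0339, 0.0469 and 0.0461). Myc, a known driver of such genes, is itself 1 of the 22 members. It lay at 22.4, 36.8 and 98.4 CPM at 24 h, against 35.3, 51.4 and 63.5 CPM at 6 h and was not called (-0.15 ± 0.32, edgeR adjusted p = 0.833). Most of these calls were lost when 1 library was left out. Dkc1 stayed called in 8 of 12, and Gnl3, Mybbp1a, Rrp12 and Polr1b in 3 each, with adjusted p up to 0.129 for Polr1b without female 6 h replicate 1.

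Of 20 early response transcription factors 18 had a negative log2 fold change (median -0.44). Of all tested genes 0.74% were called lower, the share to set beside the single calls of this list and of the EGF family. The 1 called, lower, was Maff, a small Maf protein, at 51.0, 54.6 and 72.8 CPM at 24 h, against 78.3, 94.2 and 107 CPM at 6 h and without overlap (-0.67 ± 0.11, edgeR adjusted p = 0.0144). Fos ranged widely within each time, at 4.06, 6.76 and 49.98 CPM at 24 h, against 2.80, 11.8 and 41.5 CPM at 6 h (-0.40 ± 0.59, edgeR adjusted p = 0.738). Il11, a gp130 cytokine linked to fibrosis, lay at 1.04, 1.96 and 2.88 CPM at 24 h, against 3.06, 5.78 and 10.6 CPM at 6 h, with separate groups (-1.61 ± 0.35, edgeR adjusted p = 0.0388). Il11 lies at chr7:4772373-4782859, minus strand. Hbegf, a ligand of the EGF receptor, lay at 15.2, 25.1 and 41.5 CPM at 24 h, against 36.9, 73.5 and 99.1 CPM at 6 h (-1.37 ± 0.30, edgeR adjusted p = 0.0441), the single call among 11 tested EGF family genes. Tnfrsf12a, the receptor of TWEAK, lay at 44.3, 101 and 172 CPM at 24 h, against 130.3, 266 and 323 CPM at 6 h (-1.29 ± 0.27, edgeR adjusted p = 0.0363). The last pair overlapped between times. Il11, Hbegf and Tnfrsf12a stayed called in 4 of 12 fits with 1 library left out (p up to 0.118 for Hbegf, without female 6 h replicate 1) and Maff in 10 (p up to 0.0524).

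The other large falls were scattered over receptors, kinases and inhibitors. Unc5b, a netrin receptor, lay at 126, 174 and 216 CPM at 24 h, against 235, 401 and 447 CPM at 6 h, with no overlap (-1.15 ± 0.18, edgeR adjusted p = 0.0131). Pdk4, a kinase that shuts pyruvate dehydrogenase and a glucocorticoid and PPAR target, lay at 19.3, 21.8 and 25.5 CPM at 24 h, against 27.5, 38.5 and 46.3 CPM at 6 h (-0.78 ± 0.12, edgeR adjusted p = 0.0131), also with no overlap. Rnd1, a small GTPase that loosens actin, had -1.09 ± 0.20, the membrane protein gene Tmem200a -1.42 ± 0.33, the protease inhibitor Tfpi2 -1.09 ± 0.23 and the cyclic GMP kinase Prkg2 -1.05 ± 0.23 (edgeR adjusted p between 0.0242 and 0.0478). Wnt2, a Wnt ligand made by lung mesenchyme, was low, at 0.291, 0.440 and 0.738 CPM at 24 h, against 0.704, 2.07 and 3.30 CPM at 6 h, and was called lower (-1.91 ± 0.39, edgeR adjusted p = 0.0339). Leaving out 1 library, Unc5b and Pdk4 stayed called in 11 of 12 fits (highest edgeR adjusted p 0.0511 for each, without female 6 h replicate 1), Rnd1 in 5, Tmem200a and Wnt2 in 4, and Tfpi2 and Prkg2 in 3 (p up to 0.129 for Tmem200a). Macrophage markers summed to 13.7 to 61.1 CPM at 24 h and 13.4 to 73.8 CPM at 6 h. None of 11 was called, and their median log2 fold change was -0.48. Lyz2, a member of that list, lay at 6.21, 29.5 and 40.5 CPM at 24 h, against 5.39, 35.6 and 49.95 CPM at 6 h. The members Adgre1 and C1qa reached at most 2.06 and 1.77 CPM. The part of macrophages in these falls was not tested.

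Among the genes that were higher at 24 h, receptors and mediators of gp130 signalling stood beside a lower ligand. Osmr, the oncostatin M receptor, lay at 178, 227 and 321 CPM at 24 h, against 105, 125 and 152 CPM at 6 h. Osmr lies at chr15:6813577-6874969, minus strand. Every 24 h library was above every 6 h library (0.86 ± 0.14, edgeR adjusted p = 0.0169). Il6st, which encodes gp130, lay at 652, 747 and 1274 CPM at 24 h, against 433, 462 and 602 CPM at 6 h, also without overlap (0.80 ± 0.14, edgeR adjusted p = 0.0223). Il6st lies at chr13:112464070-112510086, plus strand. With Il11, these were the 3 calls among 15 tested cytokines and receptors, 2 higher (1.02% of all tested genes) and 1 lower (0.74%). The cytokines Il6 (-0.76 ± 0.43, edgeR adjusted p = 0.335) and Lif (-0.84 ± 0.34, edgeR adjusted p = 0.178) were not called.

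Downstream genes were looked up after their values were seen. Socs3, the STAT3-induced inhibitor, lay at 12.4, 25.2 and 30.2 CPM at 24 h, against 8.49, 11.5 and 15.4 CPM at 6 h, with overlap (1.05 ± 0.19, edgeR adjusted p = 0.0223). Stat3 itself lay at 276, 294 and 314 CPM at 24 h, against 188, 223 and 246 CPM at 6 h, a small but separate difference (0.40 ± 0.08, edgeR adjusted p = 0.0352). Clcf1, another gp130 ligand, was lower, at 18.3, 19.8 and 26.2 CPM at 24 h, against 28.7, 33.3 and 37.0 CPM at 6 h (-0.67 ± 0.11, edgeR adjusted p = 0.0131), without overlap. From the lists, Bcl3, an atypical IκB and the 1 call among 15 tested NF-κB genes (1.02% of all tested genes were called higher), lay at 5.00, 9.59 and 14.4 CPM at 24 h, against 2.78, 3.60 and 4.27 CPM at 6 h (1.42 ± 0.22, edgeR adjusted p = 0.0131). Cebpd, a C/EBP factor induced by cytokines and glucocorticoids, lay at 36.3, 46.6 and 59.4 CPM at 24 h, against 9.31, 21.7 and 31.8 CPM at 6 h (1.204 ± 0.27, edgeR adjusted p = 0.046). Neither overlapped between times. With 1 library left out, Clcf1 and Bcl3 stayed called in 11 of 12 fits, Osmr in 10, Il6st and Socs3 in 7, Stat3 in 3 and Cebpd in 2. The highest adjusted p was 0.132 for Cebpd without female 6 h replicate 1.

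The Socs3 promoter holds 1 match of TTCNNNGAA, the palindrome bound by STAT factors, and is shown for that reason (RefSeq, GRCm38.p6, chr11:117969367-117969616, minus strand; capitals mark the match, which begins 154 bases before the start).
Socs3: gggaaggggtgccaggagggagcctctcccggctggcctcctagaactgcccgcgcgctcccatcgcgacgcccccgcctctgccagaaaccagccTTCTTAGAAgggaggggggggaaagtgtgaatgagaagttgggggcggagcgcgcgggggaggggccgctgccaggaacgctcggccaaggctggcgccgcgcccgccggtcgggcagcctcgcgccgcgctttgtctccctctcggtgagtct
Over the same 32851 windows the share with TTCNNNGAA was 7.02%. None of the 3 called cytokine list genes and none of the 10 other matched ones held it.

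Interferon-stimulated genes mostly had positive fold changes, and few were called. Of 24 tested, 22 had a positive log2 fold change with a median of 0.70, against 0.02 for all tested genes, and 4 were called higher (1.02% of all tested genes). Ifit3, an antiviral RNA-binding protein, lay at 8.08, 16.7 and 33.2 CPM at 24 h, against 4.12, 6.201 and 8.28 CPM at 6 h (1.56 ± 0.29, edgeR adjusted p = 0.0249). Ifit3 lies at chr19:34583531-34588731, plus strand. Stat2, the interferon signal transducer, lay at 23.3, 35.98 and 51.4 CPM at 24 h, against 12.5, 16.2 and 26.1 CPM at 6 h (1.080 ± 0.22, edgeR adjusted p = 0.0317). Stat2 lies at chr10:128270559-128292849, plus strand. Its partner Irf9 lay at 16.8, 23.3 and 35.1 CPM at 24 h, against 12.2, 14.0 and 18.96 CPM at 6 h (0.78 ± 0.17, edgeR adjusted p = 0.0383). All of them overlapped between times, and no member of the list had separate groups. The fourth call was Ddx58, which encodes the RNA sensor RIG-I (0.54 ± 0.12, edgeR adjusted p = 0.0474). Ifit3 stayed called in 5 of 12 fits with 1 library left out, Irf9 and Ddx58 in 4 and Stat2 in 3 (p up to 0.132 for Ddx58, without female 6 h replicate 1). Ifit3 has a near-identical neighbour copy, so its counts may be shared. All 13 tested antigen presentation genes were positive too (median 0.38), and none was called.

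Ifit3 and Stat2 are shown because they are the called interferon genes whose promoter holds a repeat of GAAA with 2 free bases between the copies, the core of the interferon response element (RefSeq, GRCm38.p6, Ifit3 chr19:34583279-34583528, plus strand, and Stat2 chr10:128270248-128270497, plus strand; matches on either strand in capitals).
Ifit3: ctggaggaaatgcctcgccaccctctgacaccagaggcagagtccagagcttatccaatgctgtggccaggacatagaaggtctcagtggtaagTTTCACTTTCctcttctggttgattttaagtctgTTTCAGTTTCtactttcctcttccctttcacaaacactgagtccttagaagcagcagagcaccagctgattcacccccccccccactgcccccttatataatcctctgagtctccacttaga
Stat2: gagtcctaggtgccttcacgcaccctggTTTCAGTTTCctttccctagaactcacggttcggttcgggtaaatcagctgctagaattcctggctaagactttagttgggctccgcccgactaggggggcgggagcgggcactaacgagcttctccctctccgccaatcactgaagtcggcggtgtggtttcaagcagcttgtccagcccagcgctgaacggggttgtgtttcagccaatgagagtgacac
Matches begin 156 and 122 bases before the RefSeq start of Ifit3 and 222 bases before that of Stat2. The RefSeq starts, at the end of the windows, lie upstream of the GENCODE gene starts given above, by fewer bases for Ifit3 than for Stat2. The motif stood in 2.98% of the same 32851 windows, in 2 of the 4 called interferon genes and in 9 of the 16 matched ones that were not called.

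Fatty acid desaturases were higher at 24 h. Among 12 tested fatty acid synthesis genes 4 were called higher (1.02% of all tested genes) and none lower. Each of the 4 had every 24 h library above every 6 h library (1.34% of all), and the list's median was 0.25. Fads2, the delta-6 desaturase, lay at 96.9, 124 and 167 CPM at 24 h, against 61.7, 76.1 and 80.7 CPM at 6 h (0.80 ± 0.14, edgeR adjusted p = 0.0192). Fads2 lies at chr19:10062765-10101746, minus strand. Scd2, a stearoyl-CoA desaturase, lay at 567, 597 and 1044 CPM at 24 h, against 317, 369.8 and 433 CPM at 6 h (0.86 ± 0.16, edgeR adjusted p = 0.0223). Scd2 lies at chr19:44293674-44306864, plus strand. The related Fads1 and Scd1 had 0.54 ± 0.10 and 0.60 ± 0.12 (edgeR adjusted p = 0.0269 and 0.0303). All 4 called members are desaturases. Of 24 sterol synthesis and uptake genes, 22 had a positive log2 fold change, with a median of 0.35, and 2 were called, both higher. One of them, Nsdhl, a sterol dehydrogenase, lay at 33.0, 44.6 and 62.1 CPM at 24 h, against 25.0, 25.5 and 36.8 CPM at 6 h, with overlap (0.71 ± 0.15, edgeR adjusted p = 0.0363). With 1 library left out, Fads2 and Scd2 stayed called in 8 of 12 fits, Scd1 in 6, Fads1 in 5 and Nsdhl in 4 (p up to 0.11 for Nsdhl, without female 6 h replicate 1).

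**Figure D3:**
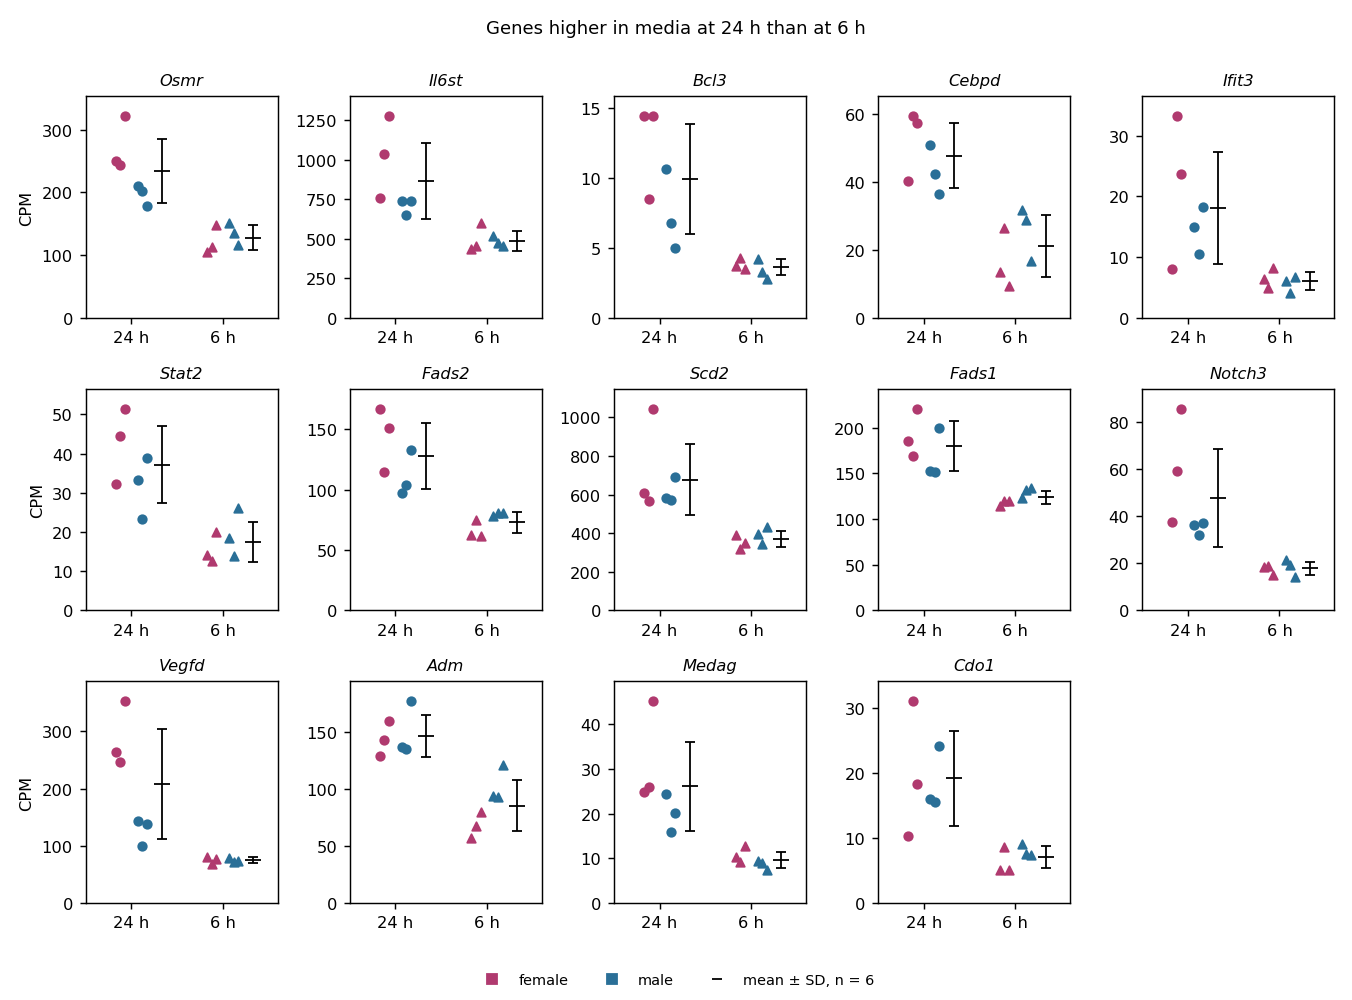
Levels in CPM of 14 genes called higher at 24 h than at 6 h in media, 24 h left and 6 h right in each panel, with axes from 0. Points are single libraries, coloured by sex, and black bars are the mean and SD of 6; the times overlap for Ifit3 and Stat2 and are separate in the other 12 panels.

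Several vascular and mural cell genes were also higher. Notch3, the Notch receptor typical of pericytes and smooth muscle, lay at 31.8, 37.2 and 85.7 CPM at 24 h, against 14.1, 18.8 and 21.2 CPM at 6 h, without overlap (1.38 ± 0.21, edgeR adjusted p = 0.0131). It was the 1 call among 11 tested pericyte markers, whose median was 0.14, against 1.02% of all tested genes called higher. Notch3 lies at chr17:32120820-32166852, minus strand. Vegfd, a lymphatic growth factor, lay at 99.6, 195 and 353 CPM at 24 h, against 67.7, 75.7 and 80.1 CPM at 6 h (1.35 ± 0.21, edgeR adjusted p = 0.0131). Vegfd lies at chrX:164373378-164402650, plus strand. Vegfb lay at 17.3, 21.7 and 29.9 CPM at 24 h, against 10.2, 13.9 and 15.5 CPM at 6 h (0.75 ± 0.14, edgeR adjusted p = 0.0257). These ligands were the 2 calls among 23 vascular growth factors and receptors, both higher (1.02% of all tested genes) and both without overlap. Adm, the vasodilator adrenomedullin, lay at 129, 139.8 and 177 CPM at 24 h, against 57.3, 86.5 and 121 CPM at 6 h (0.81 ± 0.14, edgeR adjusted p = 0.0169). Pfkfb3, which makes the activator of glycolysis, lay at 69.8, 78.0 and 96.1 CPM at 24 h, against 47.5, 53.3 and 63.2 CPM at 6 h (0.56 ± 0.10, edgeR adjusted p = 0.0247). They were the 2 calls among 23 glycolysis and hypoxia genes, whose median was 0.10, again against 1.02% of all tested genes called higher. Plat, tissue plasminogen activator, had 0.97 ± 0.21, the Wnt inhibitor Nkd1 0.69 ± 0.15, the complement-related C1qtnf1 0.75 ± 0.16, the protease Adamts9 0.80 ± 0.14 and the retinaldehyde reductase Dhrs3 0.90 ± 0.18 (edgeR adjusted p between 0.0179 and 0.0435). Vegfd stayed called in 11 of 12 fits with 1 library left out, Notch3 in 10, Adamts9 in 9, Adm in 8, Pfkfb3 in 7, Vegfb in 5, C1qtnf1 and Dhrs3 in 4, and Plat and Nkd1 in 3 (p up to 0.128 for Nkd1).

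The largest rises by fold lay mostly outside the lists, among genes of low to middle level. Serpina3g, a protease inhibitor whose near-identical copies make its counts uncertain, lay at 2.62, 5.01 and 15.1 CPM at 24 h, against 1.34, 1.68 and 2.51 CPM at 6 h (1.87 ± 0.39, edgeR adjusted p = 0.0352). Medag, known for promoting adipocyte formation, lay at 16.0, 24.6 and 45.2 CPM at 24 h, against 7.32, 9.29 and 12.8 CPM at 6 h (1.41 ± 0.17, edgeR adjusted p = 0.00542). Cdo1, the cysteine dioxygenase, lay at 10.3, 17.1 and 31.02 CPM at 24 h, against 4.98, 7.45 and 9.03 CPM at 6 h (1.45 ± 0.25, edgeR adjusted p = 0.0182). None of these overlapped between times. The ADP-ribosyltransferase family gene Art4 had 1.85 ± 0.38, the cytoskeletal Frmd5 1.603 ± 0.28, the neutrophil protease inhibitor Serpinb1a 1.55 ± 0.33, Prss35 1.55 ± 0.35, the chondroitin sulfate enzyme Csgalnact1 1.500 ± 0.34, the junction protein Plekha7 1.32 ± 0.21, the glutathione transferase Gstt1 1.31 ± 0.26 and the actin regulator Phactr1 1.30 ± 0.25 (edgeR adjusted p between 0.0145 and 0.0464). Medag held its call without any 1 library and Plekha7 in 10 of 12 fits, Cdo1 and Frmd5 in 8, Art4 in 6, and Serpina3g, Serpinb1a, Prss35, Csgalnact1, Gstt1 and Phactr1 in 3 or 4 (p up to 0.132 for Csgalnact1, without female 6 h replicate 1).

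Most lists held no called gene. Of the 45 lists that are not cell markers, 25 had no call, 9 had calls higher only, 6 lower only and 5 both. Over their 802 distinct tested genes 24 were called higher and 17 lower, against 1.02% and 0.74% of all tested genes. The 25 empty lists were not empty under every setting. Of them 20 held a call in the fit with a replicate block (53 calls) and 17 by DESeq2 (42 calls), 18 with all 36 libraries (30 calls) and 10 with no low-count filter (16 calls). Without female 24 h replicate 1, 20 of them held 42 calls, without male 24 h replicate 2, 11 held 16, and without male 6 h replicate 3, 6 held 9. Without any other single library none held one. Proliferation genes were among those without a call. Of these, 28 of 30 DNA replication genes had a negative log2 fold change (median -0.18), while 23 of 28 mitosis genes had a positive one (median 0.10). Mki67 lay at 195, 216 and 349 CPM at 24 h, against 181, 203 and 225 CPM at 6 h (0.24 ± 0.14, edgeR adjusted p = 0.363). The matrix and contractile programmes had none either, with a median of 0.06 over 20 collagens and -0.07 over 18 contractile genes. Col1a1 lay at 6873, 10542 and 12713 CPM at 24 h, against 7299, 10998 and 12591 CPM at 6 h (-0.03 ± 0.19, edgeR adjusted p = 0.953). Acta2, smooth muscle actin, lay at 5297, 8494 and 9576 CPM at 24 h, against 7142, 9417 and 11218 CPM at 6 h (-0.22 ± 0.15, edgeR adjusted p = 0.41). The 24 respiratory chain genes had a median of -0.01, the 17 clock genes 0.22, the 18 p53 targets 0.09, the 20 unfolded protein response genes -0.17 and the 19 insulin and IGF genes 0.32. Genes nearest to a call in such lists were Igfbp3, an IGF carrier (0.68 ± 0.16, edgeR adjusted p = 0.0511), the clock repressor Bhlhe40 (0.64 ± 0.15, adjusted p 0.0528) and Rrm2, which makes DNA precursors (-0.59 ± 0.14, adjusted p 0.0538).

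**Figure D4:**
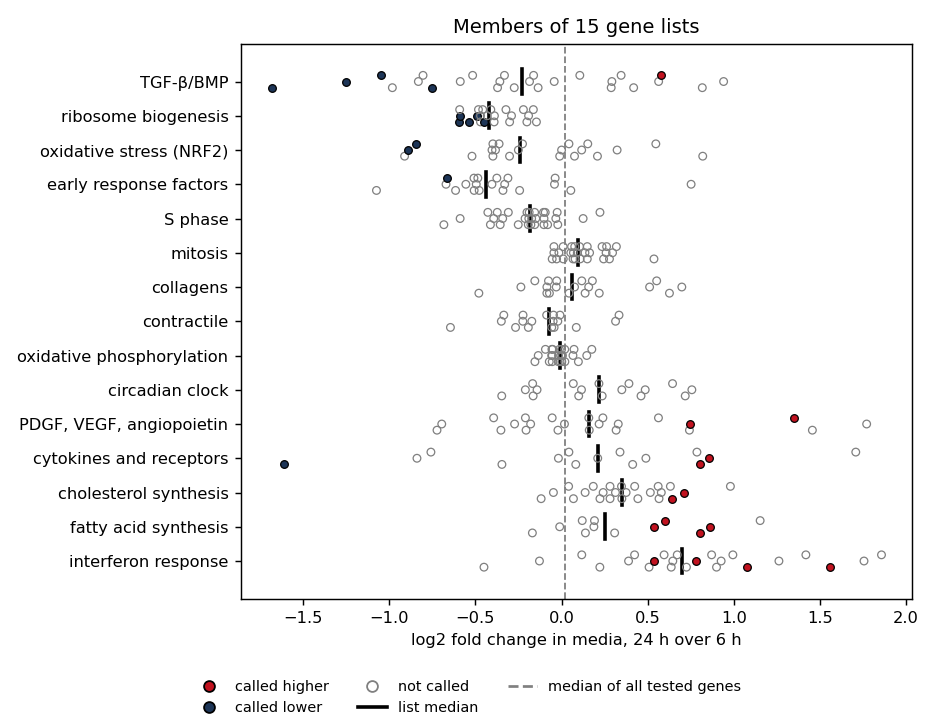
Log2 fold change in media, 24 h over 6 h, of every tested member of 15 gene lists: each point is a gene, filled where called, vertical bars are list medians and the dashed line is the median of all 14733 tested genes (0.02). All ribosome biogenesis genes lie below 0 (median -0.42), most interferon genes above (median 0.70), and the medians of the collagen, contractile and respiratory chain genes lie at 0.06, -0.07 and -0.01, with 15 of the 18 contractile genes below 0.

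No gene was called for a difference between the female and the male change. All 259 called genes had the same sign in both sexes. They were called on 1 change fitted to both sexes in these same libraries, which favours an equal sign, so this is no test of a sex difference. Over all genes edgeR called 0 of 15038 (0%), with 578 at an unadjusted p under 0.05 and 10 called by DESeq2. Fold changes given elsewhere are for both sexes together, and fitted sizes could lie apart without a call. Vegfd had 1.94 ± 0.17 in female and 0.76 ± 0.17 in male cells (edgeR adjusted p of the difference 0.977). Atoh8 went the other way, with -0.85 ± 0.20 in female and -1.26 ± 0.21 in male cells (edgeR adjusted p of the difference 0.977). Fitted in 1 sex alone, the male libraries gave 2 called genes and the female ones 0. Both fits have 3 libraries at each time, and female 24 h replicate 2, whose likeness to male libraries is given above, is among the female ones.

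The change in media was then set against the change over the same hours in BALF of uninjured lungs, in a fit of all 36 libraries. The difference of the changes was called for 312 of 15901 genes (1.96%), 202 with a more positive (1.27%) and 110 with a more negative (0.692%) change in media. In all 2387 had an unadjusted p under 0.05. Of the 259 genes called in media, 250 had the same sign in uninjured BALF, 218 were also called there in that direction, and 17 had a called difference. Over all 15901 genes of this fit, 1087 were called for the change in media. In uninjured BALF 4881 were called (2418 higher, 2463 lower) and in injured BALF 4295 (2032 higher, 2263 lower). How many of all genes had the same sign in media and BALF was not computed.

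Single calls moved here too. Of the 312 differences, 143 held without any 1 of the 24 libraries compared, 120 without the libraries of differing description numbers and 3 with libraries 1 and 2 summed. With 1 library left out the count lay between 182 and 461. It was lower by over 1.5 times (182 to 207) in 7 of these 24 fits, those without uninjured BALF female 24 h replicate 3, male 24 h replicate 3, female 6 h replicate 1 or male 6 h replicate 1, or without media male 6 h replicate 3, male 24 h replicate 1 or male 24 h replicate 2.

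On the positive side several named genes were high at 6 h in uninjured BALF. Nr4a3, an immediate-early nuclear receptor, lay in media at 0.685, 4.81 and 6.98 CPM at 24 h, against 1.84, 5.38 and 7.75 CPM at 6 h, and in uninjured BALF at 1.52, 4.13 and 13.0 CPM at 24 h, against 13.0, 75.2 and 100.4 CPM at 6 h (CPM scaled over 36 libraries here and below). The log2 change was -0.29 ± 0.51 in media and -3.77 ± 0.53 in uninjured BALF, a difference of 3.48 ± 0.71 (edgeR adjusted p = 0.00865). Nmnat2, which makes NAD, differed by 2.64 ± 0.38 (edgeR adjusted p 0.000647), Procr, the protein C receptor, by 2.10 ± 0.52 (edgeR adjusted p 0.0295) and Il11 by 2.50 ± 0.56 (edgeR adjusted p 0.0168). Hmox1 lay in media at 199.6, 248 and 299 CPM at 24 h, against 371, 459 and 541 CPM at 6 h, and in uninjured BALF at 396, 756 and 1266 CPM at 24 h, against 4646, 5397 and 6416 CPM at 6 h. Its change was -0.89 in media and -2.78 in uninjured BALF on the log2 scale (difference 1.89 ± 0.44, edgeR adjusted p = 0.0208). In each of these 5 genes the medians at 24 h lay nearer to each other than those at 6 h. Pi15, a protease inhibitor, and Adamts9 also differed, by 1.97 ± 0.45 (edgeR adjusted p 0.0177) and 1.57 ± 0.41 (edgeR adjusted p 0.0402). Other named genes had a positive log2 change in media and a value nearer to 0 in uninjured BALF. Adm had 0.81 ± 0.12 in media and 0.08 ± 0.12 in uninjured BALF (edgeR adjusted p of the difference 0.0239), and the C/EBP factor Cebpb 0.82 ± 0.21 in media and -0.29 ± 0.21 in uninjured BALF (edgeR adjusted p of the difference 0.042). The differences of Nr4a3, Nmnat2, Il11, Hmox1 and Pi15 stayed called in each of the 24 fits with 1 library left out, those of Adm in 21, Procr in 16, Cebpb in 7 and Adamts9 in 6. With libraries 1 and 2 summed none of these 9 was called (edgeR adjusted p 0.078 to 0.376).

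On the negative side the change in media lay below that in uninjured BALF. Narf, a nuclear lamin-binding protein, lay in media at 28.3, 32.3 and 34.5 CPM at 24 h, against 22.9, 25.5 and 31.4 CPM at 6 h, and in uninjured BALF at 27.6, 33.0 and 37.0 CPM at 24 h, against 5.51, 7.62 and 10.5 CPM at 6 h. Its change was 0.30 ± 0.12 in media and 2.11 ± 0.13 in uninjured BALF (difference -1.82 ± 0.17, edgeR adjusted p = 6.49e-07, the smallest of any gene). Rarb, a retinoic acid receptor induced by retinoic acid, differed by -2.87 ± 0.44 (edgeR adjusted p 0.000805), Dhrs3 by -1.88 ± 0.43 (edgeR adjusted p 0.0201) and Bnip3, a mitochondrial death and mitophagy protein induced by hypoxia, by -1.79 ± 0.36 (edgeR adjusted p 0.00644). The retinaldehyde dehydrogenase Aldh1a3 went the other way (difference 1.77 ± 0.38, edgeR adjusted p 0.0112), with -0.69 in media and -2.46 in uninjured BALF. Rgs4, a brake on G protein signalling, had -0.96 in media and 1.34 in uninjured BALF (difference -2.30 ± 0.51, edgeR adjusted p 0.0153). Tppp, a tubulin-binding protein, had -0.87 in media and 1.00 in uninjured BALF (difference -1.88 ± 0.44, edgeR adjusted p 0.0234). The differences of Narf, Rarb, Dhrs3, Bnip3, Aldh1a3 and Rgs4 stayed called in each of the 24 fits with 1 library left out and that of Tppp in 21. With summed libraries Narf alone of these 7 was called (edgeR adjusted p 0.0173, against 0.0637 to 0.254 for the others).

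The sterol synthesis list held the most called differences of any list. The median log2 change of its 24 genes was 0.35 in media, against 1.11 in uninjured and 1.22 in injured BALF. Among them 14 of 24 were called for a smaller change in media against each fluid, none for a larger one. Over all genes 0.692% and 1.15% were called in that direction. With 1 library left out these counts lay between 8 and 14 against uninjured and between 12 and 16 against injured BALF. The first was 8 or 9 without media female 6 h replicate 1, male 6 h replicate 3, male 24 h replicate 1 or male 24 h replicate 2, or without uninjured BALF female or male 24 h replicate 3. With libraries 1 and 2 summed the counts were 0 and 3, and without the libraries of differing description numbers 9 and 13. Hmgcs1, which starts the pathway, lay in media at 115, 139 and 168 CPM at 24 h, against 96.9, 115 and 168 CPM at 6 h. In uninjured BALF it lay at 192, 264 and 281 CPM at 24 h, against 80.2, 107 and 146 CPM at 6 h, and in injured BALF at 135, 187 and 221 CPM at 24 h, against 62.4, 67.6 and 82.4 CPM at 6 h. Its differences were -0.97 ± 0.19 (edgeR adjusted p 0.00426) against uninjured and -1.18 ± 0.19 (edgeR adjusted p 0.000464) against injured BALF. In media the groups overlapped, and in each BALF they did not. Nsdhl differed by -0.94 ± 0.18 (edgeR adjusted p 0.00384) and -0.87 ± 0.18 (edgeR adjusted p 0.00646). All these differences of Hmgcs1 and Nsdhl stayed called in each fit with 1 library left out, and none was called with summed libraries (edgeR adjusted p 0.0809 to 0.157). The medians of the ribosome biogenesis list were -0.42 in media, -0.84 in uninjured and -0.69 in injured BALF, with 2 and 0 of 22 genes called for a difference (1.96% and 2.6% of all genes). The comparisons share their media libraries and so are not independent of each other.

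Against injured BALF, 414 of 15901 genes (2.6%) were called for a difference in the change, 231 more positive (1.45%) and 183 more negative (1.15%) in media, with 2346 at an unadjusted p under 0.05. Of the 259 genes called in media 248 had the same sign in injured BALF, 182 were also called there in that direction, and 17 had a called difference. Over all 15901 genes 4295 were called in injured BALF, 2032 higher and 2263 lower. Of the 414 differences, 202 held without any 1 of the 24 libraries compared and 39 with libraries 1 and 2 summed, and 222 genes were called without the libraries of differing description numbers. The count with 1 library left out lay between 239 (without injured BALF female 6 h replicate 1) and 509. Icam1, a leukocyte adhesion molecule induced by NF-κB, lay in media at 13.6, 20.8 and 39.7 CPM at 24 h, against 8.80, 21.6 and 26.3 CPM at 6 h, and in injured BALF at 38.2, 47.7 and 62.5 CPM at 24 h, against 157, 186 and 324 CPM at 6 h. The change was 0.26 ± 0.19 in media and -2.06 ± 0.20 in injured BALF, a difference of 2.32 ± 0.27 (edgeR adjusted p = 1.34e-05). Of 15 tested subunits and inhibitors of NF-κB, 7 were called for a more positive change in media (6 to 8 with 1 library left out, 3 with summed libraries; 1.45% of all genes), as were the growth factor Pdgfb (2.56 ± 0.59, edgeR adjusted p 0.0157) and Aldh1a3 (2.39 ± 0.38, edgeR adjusted p 0.000491). The matrix proteoglycan Podn differed by 2.04 ± 0.45 (edgeR adjusted p 0.0115), the adhesion protein Tenm4 by 1.94 ± 0.52 (edgeR adjusted p 0.0404) and the laminin chain Lamb2 by 0.66 ± 0.13 (edgeR adjusted p 0.00696). Osmr lay in injured BALF at 247, 300.0 and 369.5 CPM at 24 h, against 237, 323 and 364 CPM at 6 h, and its rise of 0.86 in media differed from -0.02 in injured BALF (difference 0.88 ± 0.21, edgeR adjusted p = 0.0203). Of these differences Tenm4 stayed called in 9 of 24 fits with 1 library left out and Pdgfb in 23, and Icam1, Aldh1a3, Podn, Lamb2 and Osmr in all. With summed libraries Icam1 and Lamb2 were called (edgeR adjusted p 0.0191 and 0.0319) and the other 5 were not (0.0824 to 0.311).

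The acute phase gene Saa3 had the most negative difference of the named genes. It lay in media at 0, 1.33 and 2.12 CPM at 24 h, against 0.254, 2.88 and 5.88 CPM at 6 h, and in injured BALF at 116, 221 and 429 CPM at 24 h, against 18.96, 27.7 and 59.9 CPM at 6 h, a difference of the changes of -3.81 ± 0.78 (edgeR adjusted p = 0.00696). The placental prolactin family gene Prl2c2, which has near-identical copies, differed by -3.10 ± 0.69 (edgeR adjusted p 0.0117), Narf by -2.36 ± 0.18 (edgeR adjusted p 2.2e-09), Bnip3 by -2.19 ± 0.36 (edgeR adjusted p 0.000587), Dhrs3 by -2.09 ± 0.44 (edgeR adjusted p 0.00772), Rarb by -1.76 ± 0.42 (edgeR adjusted p 0.0203) and Scd2 by -1.06 ± 0.22 (edgeR adjusted p 0.00696). These 7 differences stayed called without any 1 library. Narf and Bnip3 were also called with summed libraries (edgeR adjusted p 0.000381 and 0.0205), the other 5 not (0.0889 to 0.218).

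The fall of Ahrr was tested directly against each fluid. Its change was -1.79 ± 0.39 in media, 0.29 ± 0.38 in uninjured BALF and 0.95 ± 0.38 in injured BALF, with differences of -2.08 ± 0.54 (edgeR adjusted p 0.0366) and -2.74 ± 0.54 (edgeR adjusted p 0.0052). In media it lay at 1.40, 2.06 and 3.36 CPM at 24 h, against 5.63, 7.18 and 11.1 CPM at 6 h. It lay in uninjured BALF at 2.10, 3.10 and 9.44 CPM at 24 h, against 1.55, 1.99 and 6.64 CPM at 6 h, and in injured BALF at 2.27, 4.81 and 6.73 CPM at 24 h, against 0.866, 2.34 and 3.97 CPM at 6 h. The median was highest in media at 6 h, but single BALF libraries overlapped the 6 h media libraries. For Cyp1a1 the difference was called against injured BALF (edgeR adjusted p = 0.0156) and not against uninjured BALF (edgeR adjusted p 0.566). With 1 library left out the difference of Ahrr stayed called in 10 of 24 fits against uninjured BALF (p up to 0.0861) and in all 24 against injured BALF, and that of Cyp1a1 in 23. None of the 3 was called with summed libraries (edgeR adjusted p 0.165 to 0.371). Among the BMP genes, Smad6 had -1.05 ± 0.22 in media, -0.51 ± 0.22 in uninjured and -0.46 ± 0.22 in injured BALF. No difference was called (-0.54 ± 0.31, adjusted p = 0.431, and -0.58 ± 0.31, adjusted p = 0.384, by edgeR). Id2 was called for a difference from uninjured BALF (-1.14 ± 0.29, edgeR adjusted p = 0.0344), where it had 0.39 ± 0.21. That call stayed in 11 of 24 fits with 1 library left out (p up to 0.0741).

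**Figure D5:**
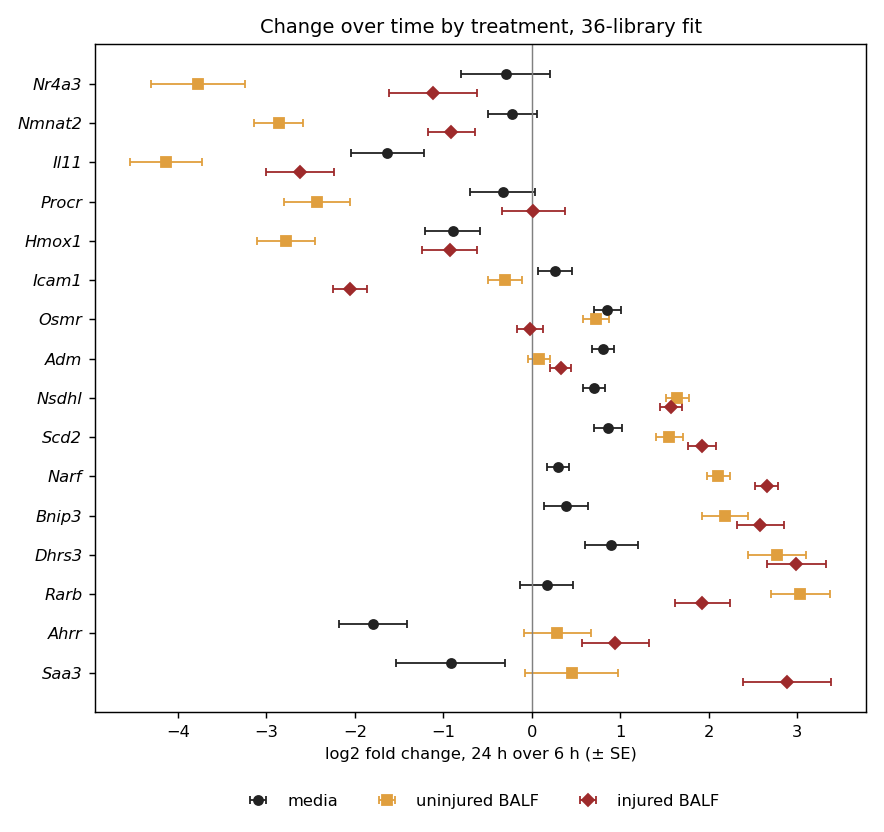
Log2 fold change of 24 h over 6 h (points, with approximate standard errors) of 16 genes in media (black circles), uninjured BALF (orange squares) and injured BALF (red diamonds), from the 36-library fit. For Nr4a3, Nmnat2, Procr and Narf the media value lies near 0 (between -0.33 and 0.30) where at least 1 fluid has a change larger than 2 in size, and for Ahrr the media value is negative where both fluids are positive.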

How the data were processed

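A stranded mRNA kit was used, per the labels' protocols. The authors deposited 1 table of counts per gene, whole numbers for 48795 Ensembl identifiers and 36 libraries, each matched to its sample by title. STAR 2.5.2b, RSEM 1.2.31, DESeq2 and GRCm38 are named per the submitters' processing notes, with no roles, so the counts may be rounded RSEM estimates, in which reads fitting near-identical genes are shared. Symbols and positions came from GENCODE M21 for 48435 identifiers (99.3%).

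The 12 media libraries were fitted with edgeR 4.0.16 in R 4.3.3 (TMM scaling, expression filter, quasi-likelihood test, terms for sex and time, 9 residual degrees of freedom), with Benjamini-Hochberg adjustment over all 14733 tested genes. Each standard error is the absolute log2 fold change over the root of F. The common biological coefficient of variation was 22.9%. The sex difference was an interaction term (8 degrees of freedom), and differences between treatments came from all 36 libraries in 12 groups (24 degrees of freedom). The scripts were tested on simulated counts.

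Named genes are the 15 largest rises and 15 largest falls among called genes with an average log2 CPM of 2 or more, up to 3 called genes with the lowest p of each list (or the 1 nearest to a call), the 5 furthest each way in each difference, and 8 fixed genes; other list members are named where a list is described. Results on some genes that these rules name are not reported here. The members and gene lists were chosen with earlier results of these data known. Alternatives covered DESeq2 1.42.0, other scalings and filters, a replicate block and left-out libraries.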

Additional observations from a re-analysis of the deposited data

Results flagged for a closer look

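Within a group of 6 libraries, 1 library lay far from the other 5 by Dixon's test in 16 of 200 groups of named genes and in 7 of 26 groups of library measures; chance gives about 1 in 20. Male 6 h replicate 3 was the library apart in 5 of the gene groups: Dhrs3 lay at 40.6 CPM (others 22.2 to 29.0), Nsdhl at 36.8 (25.0 to 26.3), Ogn, a small proteoglycan, at 98.7 (41.2 to 57.5), Tppp at 18 (8.39 to 11.7) and Unc5b at 235 (381 to 447). It also had the lowest macrophage marker sum of its group, 13.4 CPM (57.2 to 73.8), and the lowest fibroblast sum, 319 CPM (485 to 581). The macrophage sum was as low in the other media libraries of differing description number, female 24 h replicate 2 (13.7 CPM) and male 24 h replicate 3 (15.3 CPM). Female 24 h replicate 3 was apart for Bnip3 at 182 CPM (78.5 to 105), Medag at 45.2 (16.0 to 26.0), Scd2 at 1044 (567 to 690) and Serpinb1a at 155 (26.1 to 64.7).

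Female 6 h replicate 3 was apart for Ahrr at 11.1 CPM (5.56 to 7.49), Pdgfrb at 556 (730 to 820) and Prl2c2 at 11.6 (1.42 to 3.73), and had 2.05% mitochondrial counts (1.35 to 1.51). Female 24 h replicate 2 was apart for Pi15 at 59.3 CPM (24.1 to 33.7) and Plekha7 at 12.6 (5.64 to 6.82), and male 24 h replicate 2 for Fos at 50 (4.06 to 20). Female 24 h replicate 1 was apart for Tfpi2 at 5.29 CPM (2.23 to 3.22), for a TMM factor of 0.873 (1.01 to 1.08), for 3.87% mitochondrial counts (1.40 to 1.82), for 18815 genes with a count (20218 to 20533) and for a pericyte marker sum of 2549 CPM (1346 to 1640). The part of these libraries in the results was not tested beyond the fits that leave them out.

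Of the 100 named genes, the change in media differed from that in uninjured BALF for 18 and from that in injured BALF for 16. Each was called by edgeR's test of the difference at an adjusted p under 0.05. Many of these genes were named because their difference lay furthest each way in this same test. The counts therefore do not measure how often the changes differed. Over all 15901 genes the shares called were 1.96% against uninjured and 2.6% against injured BALF. On the log2 scale, media minus uninjured BALF was 1.57 for Adamts9, 0.73 for Adm, 1.77 for Aldh1a3, 1.11 for Cebpb, 1.89 for Hmox1, 2.50 for Il11, 2.64 for Nmnat2, 3.48 for Nr4a3, 1.97 for Pi15 and 2.10 for Procr. It was -2.08 for Ahrr, -1.79 for Bnip3, -1.88 for Dhrs3, -1.82 for Narf, -0.94 for Nsdhl, -2.87 for Rarb, -2.30 for Rgs4 and -1.88 for Tppp. Media minus injured BALF was 2.39 for Aldh1a3, 2.32 for Icam1, 0.66 for Lamb2, 0.88 for Osmr, 2.56 for Pdgfb, 2.04 for Podn and 1.94 for Tenm4. It was -2.74 for Ahrr, -2.19 for Bnip3, -2.09 for Dhrs3, -2.36 for Narf, -0.87 for Nsdhl, -3.10 for Prl2c2, -1.76 for Rarb, -3.81 for Saa3 and -1.06 for Scd2.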

How the results depend on the processing

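The count of 259 genes changed in media moved more than the named fold changes. It stayed within 1.5 times under RLE scaling (271), upper quartile scaling (262), a filter of 1 CPM in 6 libraries (315) and a fit without the sex term (229). It was 6 at an adjusted p under 0.01, 1087 with all 36 libraries, 1292 by DESeq2, 409 with no low-count filter, 4 without the libraries of differing description numbers, 8 with libraries 1 and 2 summed, 2 in male and 0 in female libraries alone, and the count of 79 at 2-fold was 6, 165, 194, 131, 4, 7, 2 and 0 in the same order. With 1 library or replicate number left out the counts lay between 0 and 1205, and between 0 and 222 at 2-fold; a replicate number takes 4 libraries away. Alternatives on description numbers, summed libraries, single sexes and the block without female number 2 were chosen after seeing the data.

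The replicate block gave 1248 changed genes, 240 at 2-fold, and 464 and 123 without female number 2. Replicate numbers were not taken as pairs: same-numbered libraries deviated together in 5 of 6 cases (correlations 0.41 to 0.82), but female number 2 had -0.014 and correlated best with number 3.

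The differences from uninjured BALF (312 genes) and from injured BALF (414) became 80 and 132 at an adjusted p under 0.01, 638 and 646 by DESeq2, 183 and 260 with no filter, 132 and 222 without the differing libraries, and 3 and 39 with summed libraries; with the 24 libraries compared the first was 186. Left-out libraries or replicate numbers gave 1 to 461 and 17 to 509. The sex difference was 0 genes throughout these left-out fits and 10 by DESeq2. The cause of these shifts was not tested, beyond fewer libraries or a stricter threshold.

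Of the refitted values of the named genes, 2113 stayed on their side of the threshold with their sign, 753 lost a call, 113 gained one and 36 turned sign, all in genes not called in media. Turned values with libraries left out lie in the ranges Pdgfrb -0.0594 to 0.0561, Pi15 -0.11 to 0.34, Rarb -0.0893 to 0.46, Col1a1 -0.20 to 0.14, Myc -0.63 to 0.13, Pecam1 -0.38 to 0.11 and Fos -0.90 to 0.21. Without the differing libraries Pi15 was -0.11, Col1a1 0.0813, Myc 0.0507 and Pecam1 0.0940, and with summed libraries Col1a1 was 0.0335. In male libraries alone Pi15 was -0.31, Pdgfrb -0.11, Fos 0.26 and Lyz2 0.21. With the replicate block without female number 2, Pi15 was -0.12, Col1a1 0.10, Fos 0.19, Lyz2 0.0065 and Pecam1 0.13. Genes under about 1 CPM, such as Wnt2 and Cyp1a1 at 24 h, are limited by counting error.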

Other observations

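Among the genes whose call held without any 1 of the 12 media libraries, 8 lay outside the gene groups described above and were chosen after their values were seen. Mrgprf, an orphan G protein-coupled receptor, lay at 34.1, 45.5 and 48.5 CPM at 24 h, against 14.0, 20.5 and 27.2 CPM at 6 h (1.09 ± 0.15, edgeR adjusted p = 0.0109). Map2, a microtubule-associated protein best known from neurons, lay at 25.2, 30.0 and 39.8 CPM at 24 h, against 13.0, 17.6 and 21.1 CPM at 6 h (0.85 ± 0.13, edgeR adjusted p = 0.0127). Both had every 24 h library above every 6 h library. Abca7, a lipid transporter, had 0.78 ± 0.11 and Zcchc24, a zinc finger protein gene, 0.87 ± 0.12 (edgeR adjusted p = 0.0116 each), again without overlap.

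Lower at 24 h and without overlap were Eml1, a microtubule-binding protein, at 89.1, 95.9 and 112 CPM at 24 h, against 126, 162 and 187 CPM at 6 h (-0.68 ± 0.09, edgeR adjusted p = 0.0109), and Tmeff1, a membrane protein with follistatin domains, at 26.6, 31.4 and 41.6 CPM at 24 h, against 48.0, 55.8 and 63.3 CPM at 6 h (-0.78 ± 0.11, edgeR adjusted p = 0.0124). The adenylyl cyclase gene Adcy8 lay at 0.533, 0.632 and 0.989 CPM at 24 h, against 1.56, 2.52 and 3.34 CPM at 6 h and the fatty acid binding protein gene Fabp7 at 0.349, 0.530 and 0.833 CPM at 24 h, against 1.26, 1.68 and 2.39 CPM at 6 h, both low and lower at 24 h (edgeR adjusted p = 0.0109 and 0.0131). Itga5, the fibronectin receptor subunit, was also picked after its values were seen, but its call held in only 4 of the 12 fits with 1 library left out (p up to 0.0911, without female 6 h replicate 2). It lay at 556, 862 and 1085 CPM at 24 h, against 1165, 1621 and 2009 CPM at 6 h (-0.97 ± 0.19, edgeR adjusted p = 0.0317), also without overlap.

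In BALF the sign of Map2 did not follow media throughout: it was 0.63 ± 0.39 in uninjured BALF (edgeR adjusted p = 0.228) and -0.96 ± 0.40 in injured BALF (0.0794), neither called. Mrgprf rose in both fluids, by 1.71 ± 0.26 and 1.84 ± 0.27 (edgeR adjusted p = 2.03e-05 and 1.14e-05), and Eml1 fell in both, at -0.87 ± 0.09 and -0.70 ± 0.09 (edgeR adjusted p = 4.57e-08 and 1.04e-06).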
